A study of Drosophila melanogaster with 3 samples.

Results

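Single-direction promoter peaks with a downstream summit are places where GAGA factor ChIP-seq signal was highest at or just inside the start of a gene. They were chosen from the authors' optimal peaks by position alone. The peak summit had to lie within 500 bp of protein-coding start sites of 1 strand, and at or downstream of the nearest of these in the direction of transcription. Of the 4900 optimal peaks, 396 met this rule, which is 8.08%. A further 1382 single-direction peaks had their summit upstream of the start site, 868 peaks had start sites of both strands within 500 bp and were left out, and 2254 had no protein-coding start site that near. Members were 22.3% of the 1778 single-direction promoter peaks.

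The study profiled 1 group of 3 biological replicates. The material was mixed sex embryos, whole, of Drosophila melanogaster strain Trl-MiMIC-GFP at an age of 0 to 24 h. An eGFP exon inside an intron of Trl makes a Trl-GFP fusion in this line, and the chromatin, sonicated to 200 to 800 bp, was precipitated with an antibody to GFP. All replicates carry the same tagged allele and no other condition was compared. All samples are of this 1 line, and each whole-embryo sample mixes every tissue and stage of that day. Peak lists hold no read totals, so the sequencing depth is unknown, and the labels do not say how the biological replicates were collected.

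GAGA factor, encoded by Trl (Trithorax-like), recognises GA-rich DNA through a zinc finger and helps keep promoters free of nucleosomes. At many fly promoters RNA polymerase II pauses shortly after initiation, inside the first transcribed bases, and GAGA elements are a common feature of such promoters. The GAGA element classically lies a short way upstream of the start site, while the core promoter around the start holds the Initiator and, in some genes, a downstream element.

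The sequences below show what these members look like, read from the RefSeq Release 6 genome (dm6) on the strand of the gene, 5′ to 3′. The first set holds 5 members with long alternating GA or TC runs within 100 bp of the summit, with the run inside that window in capitals. The runs lie in mtd (29 bases inside the window, whose edge cuts the run, chr3R:5283016-5283045), CG6867 (21 bases, chrX:18023901-18023930), dome (19 bases, chrX:19683045-19683074), amn (15 bases, chrX:19889498-19889527) and mei-P26 (15 bases, chrX:9164096-9164155).
mtd: aGAGAGAGAGAGAGAGAGAGAGAGAGAGAG
CG6867: ggcagCTCTCTCTCTCTCTCTCTCTCccgc
dome: gagtggGAGAGAGAGAGAGAGAGAGccaga
amn: gagagaggGAGAGAGAGAGAGAGggtttag
mei-P26: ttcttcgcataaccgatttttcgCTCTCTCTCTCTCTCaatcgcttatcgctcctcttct

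The next set holds the 100 bases directly before the start site in the strongest 3 members that carry at least 2 matches of GAGAG or its complement CTCTC there, overlapping ones counted, outside every annotated exon, with the matches in capitals. They are CG31612 (chr2L:21795448-21795547), rudhira (chrX:11818237-11818336) and Trl itself (chr3L:14757337-14757436). They are shown because the element stands before the start site while the summit stands after it.
CG31612: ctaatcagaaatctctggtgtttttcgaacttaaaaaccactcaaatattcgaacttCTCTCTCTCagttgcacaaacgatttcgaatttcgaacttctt
rudhira: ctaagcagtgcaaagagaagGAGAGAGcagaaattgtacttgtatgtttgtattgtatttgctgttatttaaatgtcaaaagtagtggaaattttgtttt
Trl: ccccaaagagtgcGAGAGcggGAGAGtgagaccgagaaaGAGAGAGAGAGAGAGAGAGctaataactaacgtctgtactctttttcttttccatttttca

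The last sets are 30 bases around start sites. In the strongest 4 ribosomal protein members the annotated start base is in capitals, at RpL30 (chr2L:19009292-19009321), RpS4 (chr3L:13041741-13041770), RpL37A (chr2L:5070942-5070971) and RpL9 (chr2L:11004139-11004168). In 3 of the strongest 4 members with the Initiator core TCAGT at the start site that core is in capitals, at CG31523 (chr3R:4478835-4478864), Naam (chr3R:19671435-19671464) and Ama (chr3R:6762578-6762607). In the strongest 4 members with CGGACG, a form of the pause button, in the first transcribed bases the match is in capitals, at Naam (chr3R:19671465-19671494), CG33695 (chr2L:11278044-11278073), chic (chr2L:5980032-5980061) and Cad87A (chr3R:11949072-11949101).
RpL30 start: ctatttgtattaattGgtggtattttctcg
RpS4 start: cgcaatccagtatttAgttattcgacgcca
RpL37A start: caccttgtcgcgtccAcattttgaggtatc
RpL9 start: gccacattaaatttcCcttcttttcttttc
CG31523 Initiator: gcccgcggtatcgaagttTCAGTatcaaaa
Naam Initiator: cgatgccggttctcTCAGTtggcattaagc
Ama Initiator: gcacgcggtctcTCAGTtcgcctgcggccg
Naam pause button: tttcacagctgaCGGACGcgaattgttccc
CG33695 pause button: gttgaatagctgCGGACGcaaaactacgta
chic pause button: ttcccagcgagtCGGACGtgtgtgtggagc
Cad87A pause button: acttaacgtgagCGGACGtatgCGGACGcg

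Most summits lay close to the start site. The median distance downstream was 63.5 bp, with a 10th percentile of 8.5 bp, a 90th percentile of 408 bp and a maximum of 494 bp. In 50 bp steps the number of members was 166 at 0 to 49 bp, 80 at 50 to 99 bp and 42 at 100 to 149 bp. It reached 8 at 250 to 299 bp and was higher again, at 18, 23 and 21, in the last 3 steps up to 500 bp. Upstream-summit peaks numbered 296 in the 50 bp directly before the start site and had a median of -124 bp. The sign of this distance is what the rule used, so these values describe the class and are not tested.

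**Figure D1:**
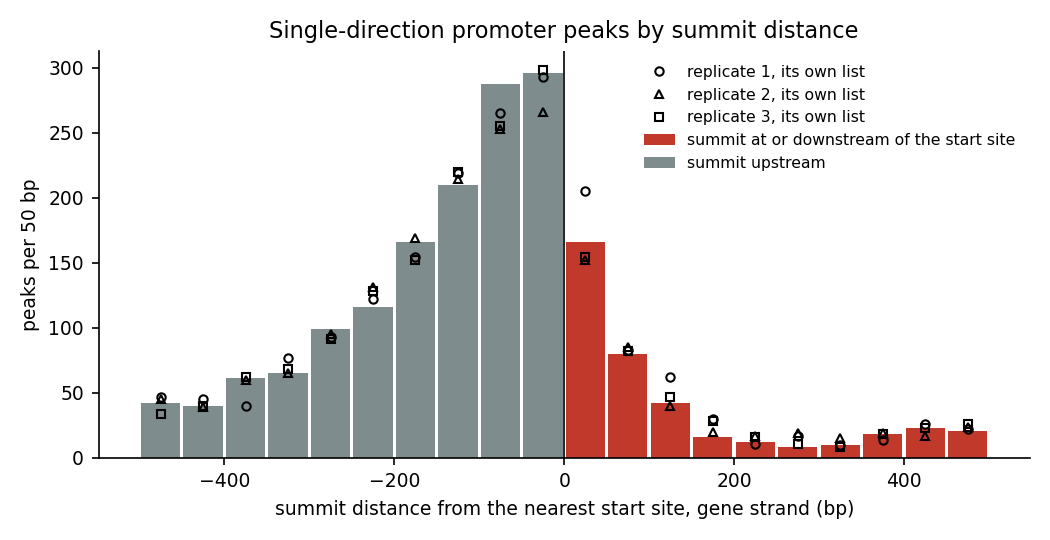
Single-direction promoter peaks per 50 bp of summit distance from the nearest start site, in bp on the gene strand; bars are the optimal list (red, members; grey, upstream-summit peaks) and open symbols the own strongest 4900 peaks of each replicate. Members fall off from 166 in the first step to 8 at 250 to 299 bp and number 21 in the last.

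The same rule was applied to the strongest 4900 peaks of each replicate's own list. It found 480 members in replicate 1, 408 in replicate 2 and 413 in replicate 3, a mean of 434 ± 40.2 (SD, n = 3). Their share of single-direction promoter peaks was 26.2%, 23.4% and 23.5%, a mean of 24.3% ± 1.58 (SD, n = 3). Replicate 1 stood above the others, and 205 of its members lay in the first 50 bp, against 152 in replicate 2 and 154 in replicate 3. From 200 to 349 bp the steps held 11, 17 and 10 members in replicate 1, and from 350 to 500 bp 14, 26 and 22. In replicate 3 these were 16, 11 and 8, and then 18, 23 and 26. In replicate 2 they were 17, 19 and 15, and then 19, 17 and 24, so the counts there did not set the farthest members apart. The median distance of members was 65, 73 and 76 bp in replicates 1, 2 and 3.

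How far the side of the summit was shared between replicates depended on the distance from the start site. The optimal list was made from the 3 replicates pooled, so this comparison is a description of their spread. Of the 396 members, 394 overlapped a peak in all 3 relaxed replicate lists of 30000 peaks, and 283 of these (71.8%) had the summit at or downstream of the same start site in all 3. Among members within 9 bp of the start site the number was 8 of 42 (19.0%), at 10 to 24 bp it was 21 of 50 (42.0%), and at 25 to 49 bp 44 of 72 (61.1%). It was 60 of 80 (75%) at 50 to 99 bp, and all 150 members from 100 bp onwards kept the side. Replicate peaks were matched by overlap and nearest summit, which favours an unchanged side far from the start site. The summit of the same peak varied between replicates with a median SD of 29.6 bp, which is more than the distance from the start site of the nearest members. Of the upstream-summit peaks, 1226 of 1378 (89%) lay upstream in all 3 replicates.

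**Figure D2:**
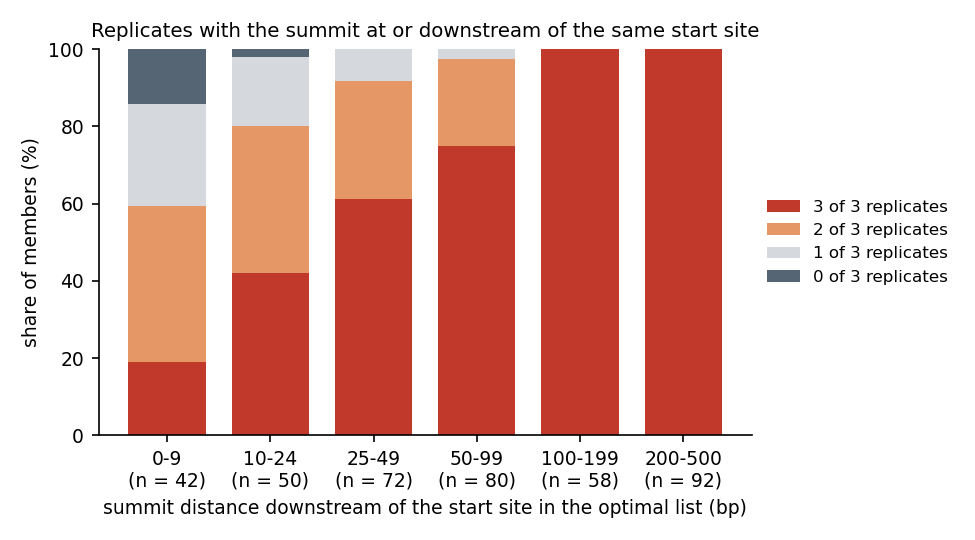
Share of members, in percent, by the number of replicates in which the summit was also at or downstream of the same start site, against the summit distance in the optimal list; n is the number of members with a peak in all 3 replicates. The share found in all 3 is 19.0% within 9 bp and complete from 100 bp onwards.

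The annotation under the summit changed with distance. Of all members, 305 (77.0%) had the summit in an annotated 5′ UTR, 75 (18.9%) in an intron and 15 in a coding exon; the rule, which places summits inside genes, fixes this in part. Within 49 bp of the start site 162 of 166 summits were in 5′ UTR. At 350 to 500 bp 39 of 62 summits were in introns, which is 62.9% (95% interval 49.7 to 74.8%), and 22 were in 5′ UTR. Intervals here and below are exact Clopper-Pearson intervals and cover counting error only. Each of the 62 summits in this far group was on the downstream side in all 3 replicates, which matching by the nearest summit favours at this distance.

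Some members have further start sites close by. A single start site lay within the window of 282 members, and 80 had another start site of the same strand downstream of the summit. In 149 members (37.6%) the nearest start site was not the most 5′ one of its gene, against 476 upstream-summit peaks (34.4%). A noncoding start site lay nearer to the summit than the coding one in 5 members. At the outer limit of the rule the last members inside 500 bp were Hel89B and CG15247 (both 494 bp), and the first peaks outside were aru (504 bp) and Ac3 (506 bp). At the other limit 4 members lay at 0 bp and 6 peaks at -1 bp.

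Members were weaker peaks by median rank than those with an upstream summit. The signal of a peak is the authors' value on an unstated scale, so only its rank was used. The median rank in the optimal list was 2949 for members and 2274 for upstream-summit peaks, where 1 is the strongest. At 350 to 500 bp from the start site the order was the other way, with 2478 for members and 2607 for upstream-summit peaks. The first decile held 28 members (7.07%) and 11.6% of the upstream-summit peaks, and the last decile held 54 members (13.6%) and 8.54% of the upstream-summit peaks. In the replicates' own lists the median signal percentile was 89.8, 90.1 and 89.7 for members, against 92.7, 92.4 and 92.6 for upstream-summit peaks. The difference was -2.72 ± 0.334 percentile points (SD, n = 3), with members lower in 3 of 3 replicates. An exact two-sided sign-flip permutation test over the replicates gave p = 0.25, the smallest that 3 replicates allow, and 0.281 after Benjamini-Hochberg adjustment over the 9 comparisons made this way.

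The strongest member lay at PNPase, which encodes polynucleotide phosphorylase, an exoribonuclease of mitochondria. Its peak at chr3R:31404477-31404848 ranked 10 of 4900, with the summit 84 bp downstream of the start site in the 5′ UTR. Its signal percentile was 99.97, 99.97 and 99.98 in replicates 1, 2 and 3, and its summit lay at 80, 95 and 78 bp. GstE13, a glutathione S-transferase gene, followed at rank 14 with summits at 65, 49 and 66 bp in the replicates and 60 bp in the optimal list. After these the members thinned out: the next was CG10413 at rank 77 (112 bp; replicates 110, 138 and 129 bp).

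Ranks 128 to 253 held the rest of the strongest 10. CG31612 (rank 128) had its summit in an intron at 467 bp, and at 472, 488 and 468 bp in the replicates. Adk3, an adenylate kinase gene, ranked 137 at 43 bp, with 31, 33 and 29 bp in the replicates. At rudhira (rank 179) the summit lay 265 bp into the gene in an intron, with 283, 267 and 256 bp in the replicates. CG4497 (rank 227) had 74 bp and Ufsp1 (rank 235), the gene of a protease for the ubiquitin-like modifier UFM1, 32 bp, where Cyp6u1 also has a start site in the window. Psc (rank 242), a subunit of Polycomb repressive complex 1, had 84 bp, with 82, 85 and 90 bp in the replicates, and zf30C (rank 253), a zinc finger gene, 48 bp. All of the strongest 10 had the summit downstream in all 3 replicates, and their signal percentiles were at or above 98.74 in each. Of the 10, rudhira and Psc had GAGAG within 100 bp of the summit.

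Trl, the gene of the profiled protein, was itself a member. Its peak at chr3L:14757049-14757458 ranked 514, with signal percentiles of 98.5, 97.9 and 98.1. The summit lay 82 bp downstream of the start site in the 5′ UTR, and at 130, 68 and 80 bp in the replicates. No GAGAG lay within 100 bp of this summit, while the 100 bases before the start site, printed above, hold several. This is also the gene that carries the eGFP exon.

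**Figure D3:**
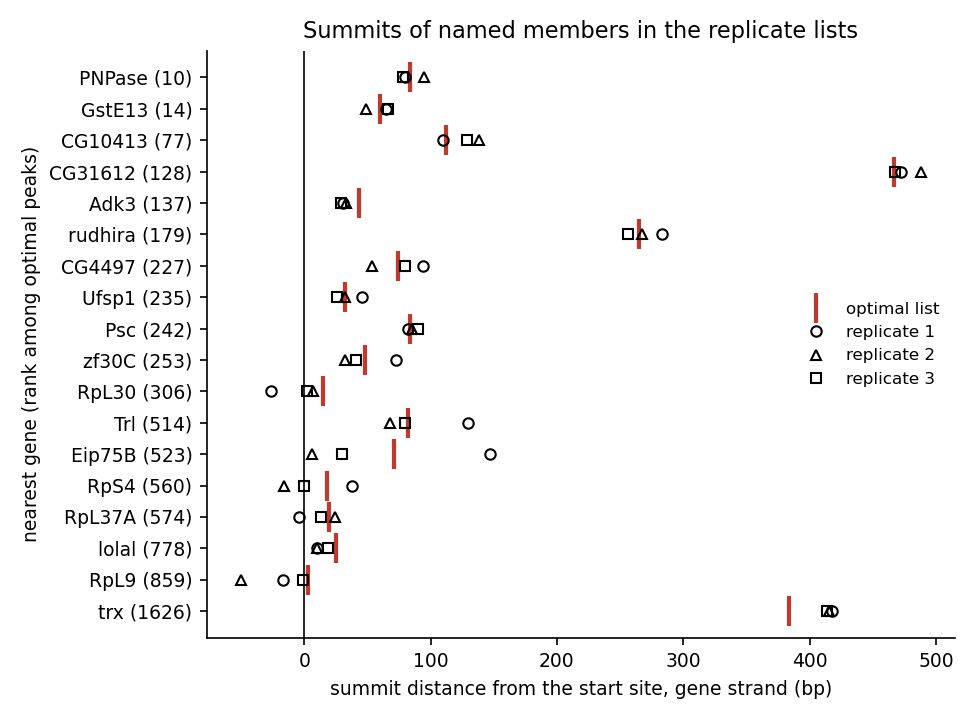
Summit distance from the start site, in bp on the gene strand, for the strongest 10 members and 8 other named members, ordered by rank (in parentheses); red bars are the optimal list and open symbols the replicates. The strongest 10 lie right of 0 in every replicate, while RpL30, RpS4 and RpL37A have replicate symbols on both sides of 0 and those of RpL9 lie left of it.

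How often GAGAG occurred near members' and upstream summits depended on the window and the distance. Within 100 bp of the summit, on either strand, GAGAG was present in 157 of 396 members (39.6%, 95% interval 34.8 to 44.7%) and in 42.3% of upstream-summit peaks. Among all 4900 optimal peaks the share was 32.6%, among peaks with start sites of both strands within 500 bp 16.5%, and among peaks away from coding starts 31.5%. In windows of the same length 63 bp inside all 19252 protein-coding start sites it was 21.9%. In the replicates' own lists the share was 36.9%, 41.4% and 42.9% for members, against 42.5%, 39.6% and 42.2% for upstream-summit peaks. The difference of -1.07 ± 3.99 percentage points (SD, n = 3) was smaller than its spread, with members lower in 1 of 3 replicates (exact sign-flip permutation p = 1). Replicate 1 set its sign: without replicate 1 the difference was 1.21. With a motif window of 50 bp it was -4.12 points, and without summits within 50 bp of the start site -4.24 points (exact permutation p = 0.25 each). In the optimal list the share was 43.4% for members and 37.8% for upstream-summit peaks at 0 to 49 bp, but 36.2% and 45.2% at 50 to 199 bp. GAGAGAG, the longer repeat, occurred in 14.9% of members, 19.3% of upstream-summit peaks and 2.37% of all start-site windows.

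Where GAGAG was present near a member's summit, it mostly lay in the transcribed part. Of the 157 members, 107 had it downstream of the start site only, 29 upstream only and 21 on both sides. Its median distance from the summit was 40 bp, and in 92 it was within 50 bp. The window follows the summit, so the side counts are set in part by the rule. Of the longest runs, those of mtd, CG6867, dome and amn lie downstream of the start site, and that of mei-P26, 30 to 44 bp before it, upstream. Rgk1, with a run of 18 bases between those of dome and amn, has it 57 to 74 bp before the start site, with the summit at 1 bp in the optimal list and at -17, -20 and -89 bp in the replicates. The peak at mtd, a TLDc-domain gene linked to oxidation resistance, had summits at 419, 414 and 427 bp. Those at dome, the receptor of the JAK/STAT pathway, lay at 419, 348 and 398 bp, and those at amn, a neuropeptide gene, at 444, 465 and 463 bp.

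Counted from the start site instead of the summit, the GAGAG profile differed between the classes. In the 50 bp from -100 to -51 GAGAG was present in 18.4% of members (95% interval 14.7 to 22.6%), 26.0% of upstream-summit peaks and 9.68% of all start sites. In the replicates' own lists this was 19.0%, 17.4% and 19.4% for members, against 25.8%, 24.7% and 26.9% for upstream-summit peaks. The difference was -7.19 ± 0.352 points (SD, n = 3), lower in 3 of 3 replicates, with an exact p = 0.25 and 0.281 adjusted. From -50 to -1 the shares were 14.9% for members and 12.4% for upstream-summit peaks. The order was thus already the other way directly before the start site, and it stayed so beyond it. Between 50 and 249 bp downstream GAGAG was present in 30.2%, 27.9% and 30.3% of members, against 24.8%, 25% and 24.3% of upstream-summit peaks in the replicates, a difference of 4.77 ± 1.59 points (exact p = 0.25, 0.281 adjusted), higher in 3 of 3. Both windows were chosen after the profile had been seen, and the peak sets of the replicates largely overlap. The classes differ by the side of the summit, so the direction of both differences may be set in part by the rule. This was not tested.

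**Figure D4:**
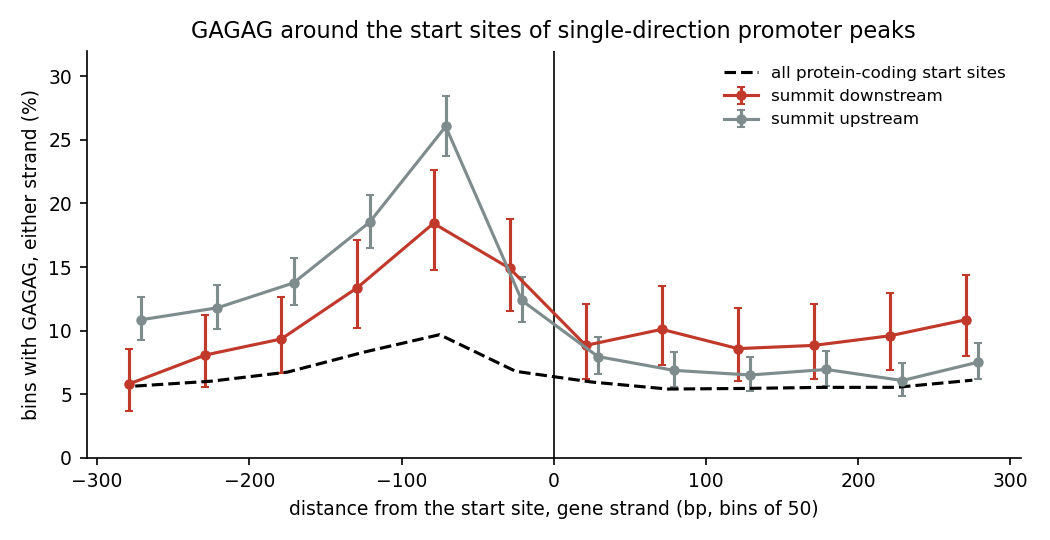
Share of 50 bp bins with GAGAG on either strand, in percent, by distance from the start site; red, members of the optimal list; grey, upstream-summit peaks; dashed, all protein-coding start sites; bars are exact 95% binomial intervals. Members reach 18.4% and upstream-summit peaks 26.0% at -100 to -51 bp.

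Over the whole 100 bp before the start site 119 members (30.1%) had GAGAG, against 33.1% of upstream-summit peaks and 15.3% of all start sites. Replicate values were 28.3%, 30.1% and 31.0% for members, against 33.4%, 31.6% and 34.4%, a difference of -3.29 ± 1.81 points (lower in 3 of 3, exact p = 0.25, 0.281 adjusted). By distance of the summit it was 30.7% for members at 0 to 49 bp, 29% at 50 to 199 bp and 30.4% at 200 to 500 bp. Each of these 3 shares lay inside the 95% intervals of the other ones (23.8 to 38.3%, 21.6 to 37.3% and 21.3 to 40.9%).

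Core promoter motifs were set out from the start site as well. The Initiator core TCAGT, starting within 10 bases of the start site on the gene strand, was present in 74 members (18.7%), 20.8% of upstream-summit peaks and 14.1% of all start sites. In the replicates it was 15.8%, 18.1% and 18.2% for members, against 21.3%, 20.4% and 20.8%, a difference of -3.49 ± 1.75 points (SD, n = 3; lower in 3 of 3, exact p = 0.25, 0.281 adjusted). Among summits 25 to 150 bp from the start site, an alternative chosen after seeing the data, the difference turned round to 3.34 points. With a promoter window of 250 bp it was -0.13 points (exact permutation p = 1).

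CGGACG, a form shared by the pause button and the downstream promoter element, gave other shares when counted from the summit than from the start site. Around the summit it was present in 9.85% of members and 4.49% of upstream-summit peaks, with 6.25% of all start-site windows of that length, on either strand. Those windows lie 63 bp inside the start site, near the median summit of members but not of upstream-summit peaks (-124 bp). In the first 60 transcribed bases, on the gene strand, it was present in 18 members (4.55%) and 4.85% of upstream-summit peaks, with 2.03% of all start sites. Replicate values there were 6.25%, 6.13% and 5.08% for members, against 4.13%, 4.64% and 4.82%, a difference of 1.29 ± 0.943 points (higher in 3 of 3, exact p = 0.25, 0.281 adjusted). In the optimal list the difference was -0.30 points. The repeat CACACA was counted likewise, on either strand. It was present around the summit in 26.5% of members and 18.3% of upstream-summit peaks (16.7% of all start-site windows), but in the first 100 transcribed bases in 12.1% and 11.4% (8.74% of all start sites).

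Base composition also depended on where the window was placed. Within 100 bp of the summit the median GC content was 45.8% for members and 40.3% for upstream-summit peaks. In the replicates the medians differed by 5.64 ± 0.718 points, higher for members in 3 of 3 (exact p = 0.25, 0.281 adjusted). Over the first 100 bases after the start site, however, the medians were 45.0% in both classes, and over the 100 bases before it they were 47.0% and 48.5%. The composition control AGGAG, which has the bases of GAGAG in another order, was present in 20.5% of members and 13.5% of upstream-summit peaks around the summit, with 23.4% of all start-site windows. In the first 100 transcribed bases it was present in 10.1% of members, 8.97% of upstream-summit peaks and 11% of all start sites. Another composition control, GGAGA, did not separate the classes around the summit. It was present in 27.5% of members, 27.2% of upstream-summit peaks and 23.9% of all start-site windows.

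The DNA replication-related element (DRE, TATCGATA) is bound by DREF at promoters of genes active in most cells. Near the summit, within 100 bp on either strand, it was found in 15 members (3.79%) and 6.22% of upstream-summit peaks. The DRE was in 13.2% of peaks with start sites of both strands within 500 bp, 4.55% of all optimal peaks and 3.82% of all start-site windows. In the replicates it was 3.33%, 4.90% and 2.91% for members, against 6.57%, 5.53% and 5.86%, a difference of -2.27 ± 1.43 points (lower in 3 of 3, exact p = 0.25, 0.281 adjusted). Among members it was mostly near the start site, with 12 of 166 at 0 to 49 bp, and 2 of 138 at 50 to 199 bp and 1 of 92 beyond. Counted in the 100 bp before the start site the order was the other way, with the DRE in 26 members (6.57%), 4.99% of upstream-summit peaks and 5.13% of all start sites.

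The 396 members lay at start sites of 384 genes, 12 of which had 2 members. These are 2.75% of the 13945 protein-coding genes, and upstream-summit peaks were nearest to 1226 genes, or 8.79%. A share of a list near 2.75% is therefore no more than that of all genes. The lists are described by these shares, and none was tested.

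Cytosolic ribosomal protein genes held the most members, 12 of 93 genes (12.9%, 95% interval 6.85 to 21.5%), and 26 had an upstream summit. Their promoters are known for a pyrimidine-rich initiation sequence of their own and for high activity in growing cells. A core form of that sequence, TCTTT, lay at the annotated start site (-5 to 9 bp, gene strand) in only 3 of the 12. Among all members it was in 2.02%, and among all start sites in 1.74%. The 12 summits lay 1 to 197 bp inside the gene with a median of 19 bp, below the median SD of a summit between replicates given above. Only 4 of the 12 were on the downstream side in all 3 replicates. RpL30 (rank 306) had summits at -26, 7 and 2 bp in replicates 1, 2 and 3, and RpS4 (rank 560) at 38, -16 and 0 bp. RpL37A (rank 574) had -4, 24 and 13 bp, and RpL9 (rank 859) -17, -50 and -1 bp. GAGAG was within 100 bp of the summit in 1 of the 12, and in 3 of the 26 upstream-summit peaks of this list. The DRE was in 4 of the 12. It was in 15 of 396 members as a whole, and in 12 of the 166 members at 0 to 49 bp. None of the 12 had GAGAG in the 100 bases before the start site, and none had TCAGT at it, as the printed start sites of 4 of them show.

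Translation factors gave 5 of 53 genes (9.43%, interval 3.13 to 20.7%). Of these, eEF5 (rank 756, 3 bp) and eEF2 (rank 944, 6 bp) again lay close to the start. Their replicate summits were at 4, -4 and -9 bp and at 25, -19 and 3 bp. The cap-binding protein gene eIF4E1 (150 bp; 167, 147 and 186 bp) and the helicase gene eIF4A (65 bp; 128, 267 and 188 bp) lay further in and had GAGAG. Mitochondrial ribosomal protein genes (0 of 73) and oxidative phosphorylation genes (0 of 84) had no member. In each list 2 genes had an upstream summit, and 32 and 18 had a peak with start sites of both strands within 500 bp. With these list sizes a count of 0 allows shares of up to 4.93% and 4.30%, above the 2.75% of all genes. No shortage can be read from them.

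Polycomb group genes, which encode chromatin repressors of developmental genes, had 5 of 23 members (21.7%, interval 7.46 to 43.7%) and 6 with an upstream summit. Psc is described above. Su(z)2, its neighbouring homologue, had its summit at 115 bp (119, 135 and 94 bp) at rank 2811. The peak at ph-p, which encodes the polyhomeotic subunit of the same complex, lay at 407 bp (395, 366 and 416 bp) at rank 480, with signal percentiles of 97.4, 99 and 98.9. lolal, whose BTB protein partners GAGA factor, had its summit at 25 bp (10, 10 and 19 bp) at rank 778. The summits at Psc, Su(z)2, ph-p and lolal were downstream in all 3 replicates. That of jing, the remaining member gene, was not, at 12 bp (4, -3 and 113 bp) and rank 2914. Another jing member ranked 3990 at 30 bp (27, -48 and -14 bp).

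Among trithorax group and remodeller genes 3 of 31 (9.68%, interval 2.04 to 25.8%) were members: Trl, trx and Utx. At trx, a histone methyltransferase gene, the summit lay at 384 bp (418, 415 and 414 bp), with GAGAG, at rank 1626. Utx, a histone demethylase gene, had 130 bp (147, 134 and 137 bp). Insulator and promoter protein genes had 3 of 17 (17.6%, interval 3.80 to 43.4%). These were Trl, pita (168 bp, with 117, 177 and 173 bp in the replicates) and CTCF (202 bp, with 209, 134 and 208 bp). Elongation factor genes had 2 of 20 (10%, interval 1.23 to 31.7%), the PAF1 complex gene hyx at 103 bp and Su(Tpl) at 493 bp. This interval and that of the trithorax group and remodeller genes include the 2.75% of all genes.

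Stress and growth response genes had 4 of 20 members (20%, interval 5.73 to 43.7%) and 12 with an upstream summit. chrb, an inhibitor of TOR signalling, had its summit at 100 bp (208, 61 and 90 bp) at rank 1176. Stat92E, the transcription factor of the JAK/STAT pathway, had 380 bp (377, 339 and 377 bp). kay, the fly Fos, had 67 bp (78, 40 and 67 bp), and puc, the phosphatase that limits JNK signalling, 56 bp (74, -37 and 58 bp). Another kay member ranked 3937 at 40 bp (51, 39 and 47 bp). Ecdysone response genes had 2 of 17 (11.8%, interval 1.46 to 36.4%, which includes the 2.75% of all genes). The cyclin-dependent kinase gene Eip63E had its summit at 88 bp (44, 72 and 93 bp). The nuclear receptor gene Eip75B had a summit at 71 bp (147, 6 and 30 bp). It had another at rank 3673 at 6 bp (-2, 5 and 2 bp), with signal percentiles of 93.1, 19.05 and 86.5.

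Other lists had 1 or 2 members. The shares were 12.5% for actins and tubulins (interval 1.55 to 38.3%), 9.09% for muscle genes (1.12 to 29.2%) and 8.33% for dorsoventral genes (1.03 to 27.0%). These intervals include the 2.75% of all genes. The tubulin genes alphaTub84B (37 bp; 82, 33 and 96 bp) and betaTub56D (32 bp; 42, 59 and 8 bp) were the 2 of 16 among actins and tubulins, both with GAGAG. Tropomyosin gene Tm1 (477 bp) and the muscle regulator Mef2 (14 bp; 17, -81 and -17 bp) were the 2 of 22 muscle genes. Of 24 dorsoventral genes, rho, the protease of EGFR ligand processing, had 31 bp (31, -18 and 52 bp) and the BMP ligand gene dpp 45 bp (65, 46 and 21 bp). Rab5 and Prosalpha5 were the single members among 30 Rab and 48 proteasome genes, shares of 3.33% and 2.08%.

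Several further lists had upstream summits but no member. Segmentation and Hox genes had 0 of 38, with 8 at upstream summits, and the EGFR and Notch pathway 0 of 22, with 11 at upstream summits. Heat shock and chaperone genes had 0 of 24, with 6 at upstream summits. With these list sizes a count of 0 allows shares of up to 9.25%, 15.4% and 14.2%, all above 2.75%, so no shortage can be read from them. Odorant and gustatory receptor genes (0 of 179) and cuticle protein genes (0 of 117) had neither kind of peak.

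**Figure D5:**
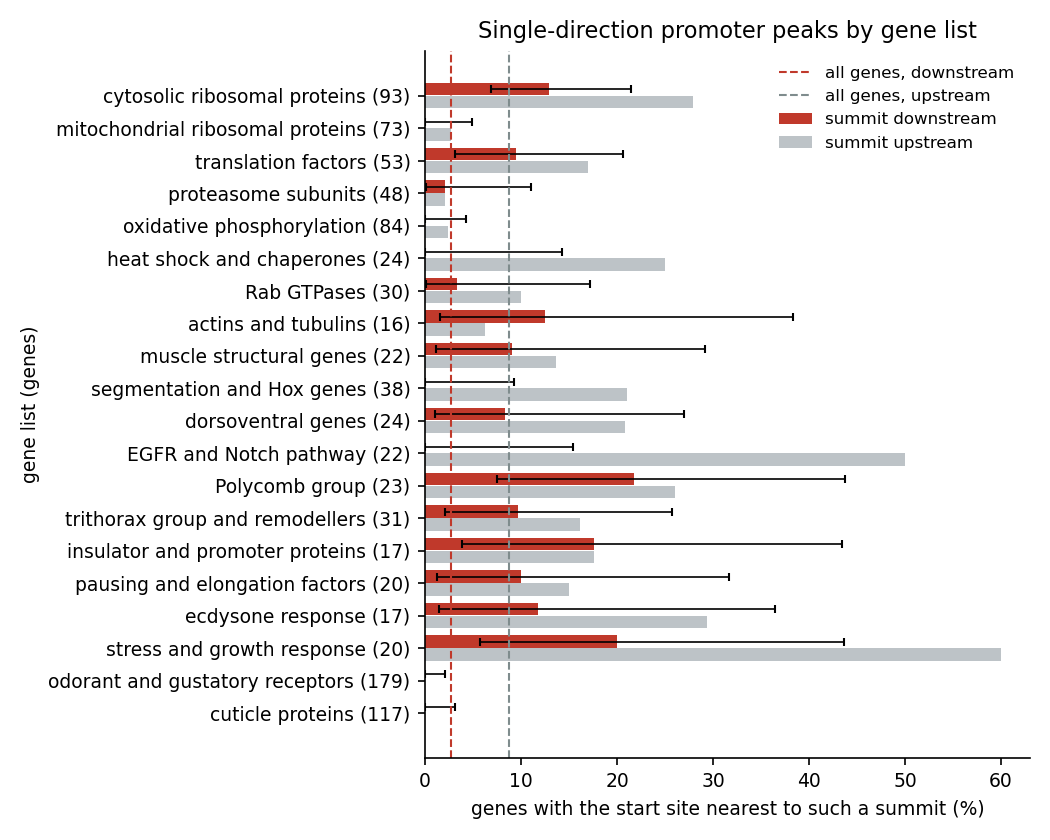
Genes of each list, in percent, whose start site was nearest to a single-direction summit; red, downstream (bars are exact 95% binomial intervals); grey, upstream; dashed lines, the shares over all protein-coding genes (2.75% and 8.79%); the number of genes is in parentheses. Ribosomal protein genes reach 12.9% and Polycomb group genes 21.7% for downstream summits.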

How the data were processed

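GAGA factor-GFP ChIP-seq was measured in 3 biological replicates. Per the deposited text notes, the replicate lists (30000 peaks each) were the input of IDR (irreproducible discovery rate) and include background, and the optimal list of 4900 peaks was thresholded by IDR. For aligner, caller and their versions, none is given in the sources used here. Peak signal is the deposited value of the authors on an unstated scale and was used for rank only. Optimal peaks had deposited −log10 q-values between 3.49 and 3.97, which served no step here. Lists on dm3 were not used.

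Start sites were those of 13945 protein-coding genes in Ensembl release 115 (dm6). The summit is the deposited offset from the peak start. Replicate peaks were matched by an overlap of 1 bp, nearest summit first, and a percentile is a peak's rank in its list of 30000, with 0 where no peak matched. A total of 14 motifs were sought up to 100 bp from the summit. Some of these, and TCTTT, were sought in windows counted from the start site. For every motif the start-site windows set beside shares around the summit were centred 63 bp downstream of each start site, by the median of members. Differences between classes were computed in each replicate's own strongest 4900 peaks and tested by an exact sign-flip permutation test, whose smallest p is 0.25. Medians and shares read the same genome at largely shared peaks, so their spread over replicates is small in part by construction. Peaks are not replicates of a condition. The members, the 20 gene lists and the tests were chosen with earlier results of these data known. Listed symbols that the annotation spells otherwise were matched by hand through RefSeq synonyms after the files were seen. Named genes are the strongest 10 members and up to 4 per list by signal, with jing added. The 6 longest GA runs within 100 bp of the summit (ties by signal), the peaks at the limits of the rule and Trl were also named. Cyp6u1 and the genes of the printed start sites and promoters were chosen by signal among those with the motif, after the values were seen. The alternatives were promoter limits of 250 and 1000 bp, motif searches within 50 and 250 bp, other start site sets, the stronger 2450 peaks, the optimal list, summits within 50 bp left out and each replicate left out. The GC comparison and both GAGAG windows beside the start site were added after seeing the data. A pair more was added after seeing the data: summits 25 to 150 bp from the start site, and optimal peaks with the same side in all 3 replicates. The start site sequence of 1 member is not reported here. The code was tested on simulated data. Python 3.11.15, numpy 2.4.6, scipy 1.17.1 and matplotlib 3.10.9 were used.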

Additional observations from a re-analysis of the deposited data

How the results depend on the processing

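All values here are differences of members minus upstream-summit peaks, or counts and medians of members. They are means over the replicates' own lists, except those of the optimal list and of optimal peaks with the same side in all 3 replicates, which are single values. The sign-flip test cannot go below 0.25 with 3 replicates, so only direction is compared. The differences in signal percentile, GC content and GAGAG at -100 to -51 bp and at 50 to 249 bp kept their direction under every alternative run on them. The GAGAG difference at the summit, -1.07 points, turned to 0.0061, 1.22 and 1.65 with windows of 250 and 1000 bp and with the most 5′ start site of each gene. The DRE difference turned to 0.753 with a motif window of 250 bp. The GAGAG difference before the start site turned to 0.33 among the stronger 2450 peaks, and the Initiator difference to 3.34 for summits at 25 to 150 bp, while it was -0.13 with a window of 250 bp. The CGGACG difference turned to -0.303 in the optimal list and to -0.0012 among optimal peaks with the same side in all 3 replicates. The cause of these turns was not tested. The number of members, 434, became 154 among the stronger peaks, 260 without summits within 50 bp, and 212 at 25 to 150 bp. The 396 optimal members became 283 with the same side in all 3 replicates. Each of these settings keeps fewer peaks by construction. The stronger 2450 peaks did not cut both classes alike, however, as upstream-summit peaks went from 1347 to 734 there, a smaller relative fall than that of members. The median distance, 71.3 bp, was 50.2 and 258 bp with windows of 250 and 1000 bp, 98.7 bp with the most 5′ start sites, 84.2 bp with start sites of all genes, 88.0 bp among the stronger peaks, 63.5 bp in the optimal list, 155 bp without summits within 50 bp, 61.3 bp at 25 to 150 bp and 109 bp with the same side in all 3.

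Leaving out 1 replicate at a time gave GAGAG differences at the summit of -2.49 to 1.21, DRE differences of -3.09 to -1.79, percentile differences of -2.91 to -2.60, GAGAG differences before the start site of -4.23 to -2.42, Initiator differences of -4.09 to -2.48 and CGGACG differences of 0.876 to 1.80. It gave GC differences of 5.22 to 5.85, GAGAG differences of -7.38 to -7.04 at -100 to -51 bp and of 4.19 to 5.67 at 50 to 249 bp, 410.5 to 446.5 members and median distances of 69.0 to 74.5 bp. All differences are taken within a replicate, and a further block by replicate number was not needed. The peak lists give no depth, so no limit from sequencing depth can be set.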

Other observations

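Members were spread over the main chromosome arms, with 77 on 2L, 78 on 2R, 80 on 3L, 89 on 3R, 72 on X and none on 4. Upstream-summit peaks numbered 264, 294, 258, 320 and 241 on the same arms, and 5 on 4.

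Among the other motifs sought within 100 bp of the summit on either strand, TATAAA was present in 17.4% of members and 22.6% of upstream-summit peaks. TATAAA was also present in 34% of peaks with start sites of both strands within 500 bp and 23.2% of all start-site windows of that length. In its usual place 20 to 40 bases before the start site, on the gene strand, it was present in 3.54% of members, 2.82% of upstream-summit peaks and 6.19% of all start sites. Motif 1 (GGTCACACT), a core element of genes active in most cells, was present in 3.28% of members and 3.40% of upstream-summit peaks (3.58% of all start-site windows). The Zelda site CAGGTAG, bound by the activator of the early zygotic genome, was present in 5 members (1.26%) and 0.796% of upstream-summit peaks (1.01% of all start-site windows).

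On the gene strand, GAGAG and its complement CTCTC were about as frequent as each other in members at -100 to -51 bp, with 10.1% and 10.6%. From -50 to -1 bp they were present in 5.30% and 9.60% of members, and in 4.99% and 7.45% of upstream-summit peaks.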
